A study of Mus musculus with 2 samples.

Results

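The 9 genes described here are inhibitors of ERK signalling that cells make in response to it: the Sprouty genes *Spry1*, *Spry2* and *Spry4*, the Spred genes *Spred1*, *Spred2* and *Spred3*, and the dual specificity phosphatase genes *Dusp4*, *Dusp5* and *Dusp6*. They were chosen by symbol, each matched 1 of the 32285 genes of the deposited tables, and they were measured in hippocampal Cajal-Retzius (CR) cells with and without CIC. CR cells are early-born neurons that release reelin, and most of them die in the postnatal weeks. The study asked what the loss of CIC in these cells changes.

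Growth factor receptors switch on the RAS, RAF, MEK and ERK kinases in turn. CIC, the protein made by *Cic* (capicua), is a DNA-binding repressor that keeps ERK target genes low until active ERK takes it off DNA, and the ETS factor genes *Etv4* and *Etv5* are among its best known targets. Several of these targets encode brakes on the pathway: Sprouty and Spred proteins act between the receptor and RAF, and the DUSP proteins remove the activating phosphates from ERK itself.

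There were 2 libraries of single cells, 1 for each genotype, both from mice at postnatal day 14. The control library pooled 4 *ΔNp73-Cre; Cic flox/+; tdT* mice (3 males and 1 female) and the knockout library 4 of their littermates (2 males and 2 females) with the genotype *ΔNp73-Cre; Cic flox/flox; tdT*. Both groups therefore carried the Cre transgene, which is active in CR cell progenitors, the tdTomato (tdT) reporter that Cre switches on, and at least 1 floxed *Cic* allele, so the control had lost a copy of *Cic* as well. Living tdT+ cells were sorted and their RNA was tagged near its 3′ end with unique molecular identifiers (UMIs), each of which counts 1 captured RNA molecule. With 1 library per genotype and no label that ties a cell to a mouse, no test between genotypes was possible. The 95% intervals below cover counting error only. Genotype and library cannot be told apart in any comparison between the libraries. The sex of the pooled mice is set apart from them only where male and female cells are given separately.

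Cells were the barcodes with at least 2000 UMIs and at least 5 UMIs of *Reln*, the reelin gene. This gave 1003 control cells (of 1011 barcodes with at least 2000 UMIs) with a median of 6224 UMIs, and 390 knockout cells (of 406) with a median of 6664 UMIs, and the libraries shared 0 cell barcodes. Of 8 CR cell markers, *Reln* was present in every cell because the rule requires it. All the others (*Trp73, Lhx1, Lhx5, Calb2, Nhlh2, Ebf3* and *Ndnf*) were detected in 25% or more of the cells, in either genotype. Of the markers of 11 other cell types, only *Cspg4* and *Rgs5* reached that share. *Cic* had 58.9 UMIs per 1000000 UMIs (CPM) in control and 51.3 in knockout cells. A 3′ tag outside the floxed part checks nothing of the deletion, and where the tags lie was not given in the sources used here. *Etv4* or *Etv5* had a UMI in 162 knockout cells (41.5%, 36.6 to 46.6) and in 87 control cells (8.67%, 7.01 to 10.6).

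Promoters of 4 members are shown first, from RefSeq on GRCm38.p6, each from 250 bases before to 50 bases after its start site. *Spred1* and *Spred3* had higher CPM in knockout than in control cells. Capitals mark an octamer known to be bound by CIC (TGAATGAA, TGAATGGA, TCAATGAA or TCAATGGA, either strand). Of the 7 members with a promoter here, *Spred3*, *Spry2* and *Dusp6* hold such an octamer, and *Spred1* holds none in this window.

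Spred1 promoter, chr2:117120821-117121120, plus strand: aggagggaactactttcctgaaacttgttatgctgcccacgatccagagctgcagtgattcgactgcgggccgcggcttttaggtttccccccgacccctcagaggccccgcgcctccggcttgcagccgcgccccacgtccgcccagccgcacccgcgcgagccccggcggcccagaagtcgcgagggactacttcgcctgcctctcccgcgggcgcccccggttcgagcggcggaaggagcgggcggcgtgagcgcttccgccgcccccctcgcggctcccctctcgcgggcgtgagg

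Spred3 promoter, chr7:29168598-29168897, minus strand: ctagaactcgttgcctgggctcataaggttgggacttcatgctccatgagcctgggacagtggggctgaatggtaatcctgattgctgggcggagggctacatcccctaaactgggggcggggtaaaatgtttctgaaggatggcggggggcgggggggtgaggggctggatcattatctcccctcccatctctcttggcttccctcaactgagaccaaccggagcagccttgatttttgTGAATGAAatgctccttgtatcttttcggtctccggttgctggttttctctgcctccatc

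Spry2 promoter, chr14:105896770-105897069, minus strand: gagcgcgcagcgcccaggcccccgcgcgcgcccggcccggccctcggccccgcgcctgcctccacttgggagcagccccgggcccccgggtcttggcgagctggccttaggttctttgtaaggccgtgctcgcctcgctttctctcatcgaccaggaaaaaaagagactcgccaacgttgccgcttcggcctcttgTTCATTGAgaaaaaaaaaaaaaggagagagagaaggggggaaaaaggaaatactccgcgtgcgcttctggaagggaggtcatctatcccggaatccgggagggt

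Dusp6 promoter, chr10:99262981-99263280, plus strand: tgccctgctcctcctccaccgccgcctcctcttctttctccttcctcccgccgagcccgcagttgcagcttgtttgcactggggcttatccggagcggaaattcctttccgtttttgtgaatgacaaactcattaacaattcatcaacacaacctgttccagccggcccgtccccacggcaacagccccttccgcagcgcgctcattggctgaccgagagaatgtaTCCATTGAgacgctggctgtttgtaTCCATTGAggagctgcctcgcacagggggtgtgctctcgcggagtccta

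The promoter table used here matched 7 of the 9 members (all but *Spry4* and *Dusp4*), and 3 of the 7 contained an octamer, against 3.84% of all 32851 promoters of this length. In *Spred3* the octamer began 10 bases before the start site, in *Spry2* 54 bases before it, and *Dusp6* had 1 that began 24 bases before and 1 that began 1 base after. The *Spred3* start site used by RefSeq lies 1764 bases inside the gene as GENCODE draws it. For *Spred1* the RefSeq start site is base 117121071 and the GENCODE start is base 117121374. The *Spred1* window thus ends before the gene as GENCODE draws it, and a window at that other start was not searched. None of the 7 promoters held the ETS core CCGGAAGT on either strand, which 3.89% of all promoters contained. These matches describe letters in a short window and not binding.

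The first comparison asked which members differ between knockout and control cells. A member was called when its CPM ratio was at least 1.5 in either direction and it had at least 100 UMIs over both groups, which 4 of the 9 passed (*Spry2, Spred1, Spred2* and *Dusp4*). *Spred1* was the only member called, and it rose 1.73-fold in the knockout. Across all genes with at least 100 UMIs, 2.73% of 9442 were called higher and 1.66% lower, so 1 of 4 called members stands against that background, and the median ratio of the 4 was 1.06 beside 1.00 over all genes. The other 5 members were too sparse for the call, and their values are given with their intervals. Of these, *Spry4* and *Spred3* had higher CPM in the knockout and *Dusp5* had lower CPM, each with an interval of the ratio that excludes 1. With the minimum lowered to 20 UMIs, which was chosen after seeing the data, 8 members passed, of which 3 were at least 1.5-fold higher and 1 lower. The background at that minimum was 7.5% higher and 5.56% lower of 13328 genes. *Spry4* reached it through its 24 knockout UMIs, with 1 in control, and *Dusp5* through its 65 control UMIs, with 12 in the knockout. For these 2 genes passing the minimum and being counted are not independent, so the counts are no support beyond the values themselves.

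**Figure D1:**
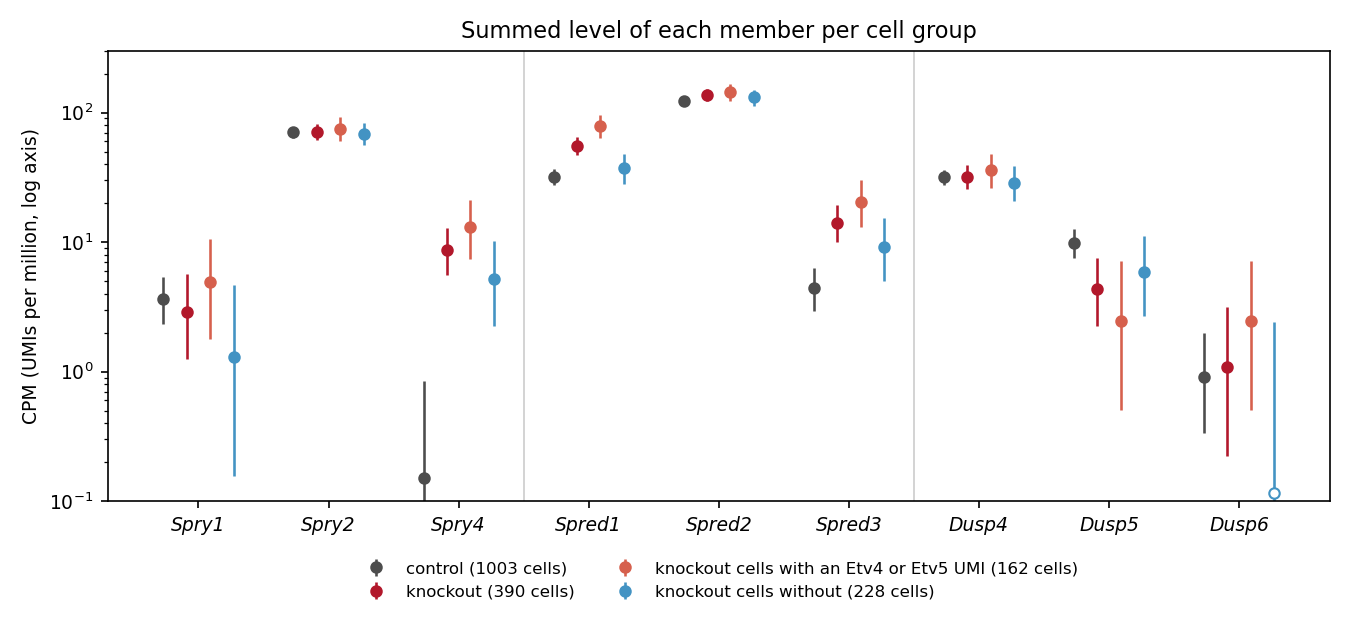
CPM of each member (log axis) in control cells, all knockout cells, and knockout cells with and without an *Etv4* or *Etv5* UMI. Points are summed UMIs per 1000000 and bars exact Poisson 95% intervals, cut at the lower edge of the axis, and the open point is a count of 0. *Spred1* stands at 32.0 CPM in control and 78.1 CPM in knockout cells with an *Etv4* or *Etv5* UMI, while *Spry2* and *Dusp4* keep overlapping intervals across the 4 groups.

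The Sprouty proteins are cytoplasmic adaptors that ERK signalling induces and that dampen the signal from receptor tyrosine kinases to RAS and RAF. *Spry4* (chr18:38586247-38601415, minus strand) had 1 UMI in the control library, or 0.151 CPM (0.00384 to 0.844). In the knockout it had 24 UMIs, or 8.68 CPM (5.56 to 12.9). The 24 UMIs came from 24 different cells (6.15% of cells, 3.98 to 9.02), against 1 of 1003 control cells (0.0997%, 0.00252 to 0.554). The CPM ratio was 57.3, and since it rests on 1 control UMI its counting interval runs from 9.34 to 2356. After thinning every cell to 3000 UMIs, 8 of 387 knockout cells and 0 of 984 control cells had a *Spry4* UMI, and 0 of 984 allows a share of up to 0.374% (Clopper-Pearson) in control. Droplets without a cell (20 to 100 UMIs, median 44 UMIs in the knockout and 89 in the control) had a *Spry4* UMI in 0.0765% and 0.00689% of cases. At 1 median droplet of free RNA per cell, 0.319 *Spry4* UMIs would be expected in all knockout cells together.

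*Spry2* (chr14:105891947-105896819, minus strand) was the Sprouty gene with most UMIs in these cells. It had 70.4 CPM in control (465 UMIs, 64.2 to 77.1) and 71.2 CPM in the knockout (197 UMIs, 61.6 to 81.9), a ratio of 1.01 (0.852 to 1.20). The interval leaves out a change of 1.5-fold in either direction, although the ratio was 1.20 in male and 0.766 in female cells. *Spry1* (chr3:37639947-37644598, plus strand) was sparse, with 24 UMIs or 3.64 CPM in control and 8 UMIs or 2.89 CPM in the knockout. Its ratio of 0.796 had an interval from 0.309 to 1.83, so no difference was detectable at this depth.

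Spred proteins are the Sprouty-related family that binds neurofibromin, the RAS GTPase activator, and brings it to the membrane to switch RAS off. *Spred1* (chr2:117121374-117182279, plus strand) had 211 UMIs or 32.0 CPM (27.8 to 36.6) in control and 153 UMIs or 55.3 CPM (46.9 to 64.8) in the knockout. The ratio was 1.73 (1.40 to 2.14), with 106 of the 9442 genes above it. A *Spred1* UMI was seen in 17.0% of control cells (14.8 to 19.5) and in 26.7% of knockout cells (22.3 to 31.4). In cells thinned to 3000 UMIs the shares were 8.33% (6.68 to 10.2) and 13.4% (10.2 to 17.2). In droplets they were 0.121% and 0.164%, at unlike median depths of 89 UMIs in control and 44 in the knockout. In male cells the ratio was 1.99 (1.5 to 2.61), and in female cells it was 1.32 (0.903 to 1.93), below the fold used for a call, and these intervals overlap. The female cells came from 1 control mouse and 2 knockout mice.

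*Spred3* (chr7:29158829-29170411, minus strand), the member of the family that lacks a functional KIT-binding domain, had 29 UMIs or 4.39 CPM (2.94 to 6.31) in control and 39 UMIs or 14.1 CPM (10.0 to 19.3) in the knockout. The ratio was 3.21 (1.93 to 5.38), 2.57 in male and 4.45 in female cells. The UMIs came from 28 control cells and 32 knockout cells, with at most 3 in any cell. *Ggn*, which overlaps *Spred3* on the opposite strand, had 2 UMIs in control and 0 in knockout cells. *Spred2* (chr11:19924375-20024026, plus strand) had 123 CPM (812 UMIs, 115 to 132) in control and 136 CPM (377 UMIs, 123 to 151) in the knockout. Its ratio of 1.11 (0.978 to 1.25) lies below the fold of a call. Within the Spred family the ratios thus ranged from 1.11 to 3.21, and the intervals of *Spred2* and *Spred3* do not overlap.

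The DUSP proteins of this set act on ERK in different places: DUSP6 in the cytoplasm, DUSP4 and DUSP5 in the nucleus. *Dusp4* (chr8:34807297-34819894, plus strand) had 31.7 CPM in control (209 UMIs, 27.5 to 36.3) and 31.8 CPM in the knockout (88 UMIs, 25.5 to 39.2), a ratio of 1.00 (0.774 to 1.30). *Dusp5* (chr19:53529109-53542431, plus strand) had 65 UMIs or 9.85 CPM (7.60 to 12.5) in control and 12 UMIs or 4.34 CPM (2.24 to 7.58) in the knockout. The ratio was 0.441 (0.217 to 0.823), and 0.412 without the cell of each library with most *Dusp5* UMIs, which had 7 in control. *Dusp6* (chr10:99263231-99267489, plus strand), often read as a gauge of ERK activity, had 6 UMIs in 6 control cells and 3 in 3 knockout cells. The ratio of 1.19 had an interval from 0.193 to 5.59, which says nothing of a difference.

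**Figure D2:**
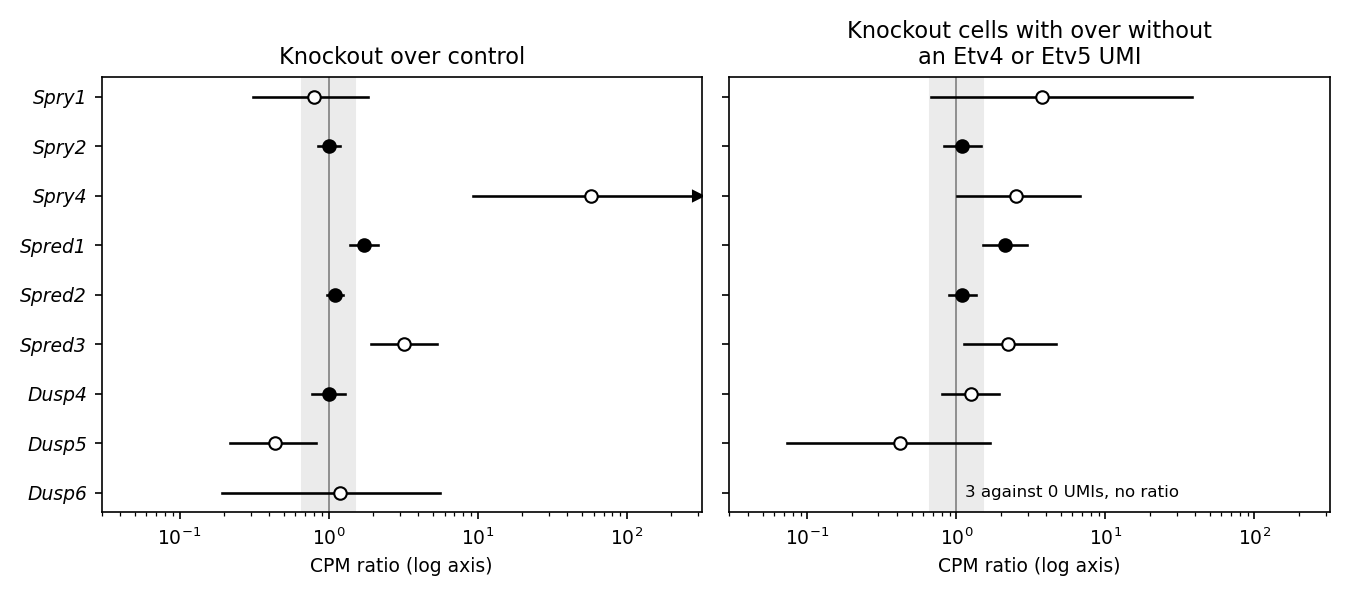
CPM ratio of each member with its exact 95% interval (log axis), for knockout over control cells and for knockout cells with over without an *Etv4* or *Etv5* UMI. Filled points had at least 100 UMIs over both groups, open points fewer, the grey band spans less than 1.5-fold and the arrow marks an interval that runs past the axis. *Spred1* is the only filled point outside the band in either panel, at 1.73 and 2.11.

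The knockout cells were then split by whether they held a UMI of *Etv4* or *Etv5*, known targets of CIC. The study describes that CIC was lost from most, but not all, hippocampal CR cells of this line. Such a UMI was found in 41.5% of the knockout cells, so the group without one cannot be taken as cells that kept CIC. The 162 cells with such a UMI were deeper (median 7266 UMIs) than the 228 without (6210 UMIs), and an absent UMI does not show that the gene was silent. Here 3 of the 9 members had at least 100 UMIs, and *Spred1* was again the only one called, at 2.11-fold higher in the cells with a UMI. Among 5224 genes, 2.99% were called higher and 1.95% lower. The median ratio of the 3 members was 1.10, beside 1.01 over all genes. At the minimum of 20 UMIs, 6 members passed and 3 of them were at least 1.5-fold higher, beside 8.8% of 10603 genes, and 0 were lower, beside 7.71%. *Spry4* reached this minimum through its 16 UMIs in the cells with, beside 8 in those without. For *Spry4*, passing and being counted are not independent, so this count is no support beyond the values themselves.

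*Spred1* had 96 UMIs or 78.1 CPM (63.3 to 95.4) in the cells with an *Etv4* or *Etv5* UMI and 57 UMIs or 37.1 CPM (28.1 to 48.0) in those without. The ratio of 2.11 (1.5 to 2.98) was exceeded by 20 of the 5224 genes. With the sexes pooled, the level in the cells without lies near that of control cells, at 37.1 against 32.0 CPM. Its ratio to control was 1.16 (0.850 to 1.56), and that of the cells with such a UMI was 2.45 (1.90 to 3.13). Against control, 1 of 4 members was called higher in the cells with an *Etv4* or *Etv5* UMI (4.62% of all genes higher, 4.51% lower) and 0 of 4 in the cells without (2.57% and 2.68%). In male knockout cells *Spred1* had 74.5 CPM with and 51.3 CPM without an *Etv4* or *Etv5* UMI, a ratio of 1.45 (0.932 to 2.26). In female knockout cells it had 82.1 and 20.7 CPM, a ratio of 3.97 (2.12 to 7.98), with 13 UMIs in the cells without. The intervals of the levels in male and female cells overlap for the cells with such a UMI and do not for those without. In control cells *Spred1* had 30.7 CPM (25.9 to 36.1) in male and 38.3 CPM (28.9 to 49.9) in female cells. Male knockout cells without such a UMI lay above male control cells, with an interval from 37.1 to 69.1 that does not overlap. Female knockout cells without one lay below female control cells, with overlapping intervals. The pooled level near control thus combines differences in opposite directions.

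*Spred3* and *Spry4* had higher CPM in the cells with an *Etv4* or *Etv5* UMI, at low counts. *Spred3* had 25 UMIs or 20.4 CPM (13.2 to 30.0) with and 14 UMIs or 9.11 CPM (4.98 to 15.3) without, a ratio of 2.24 (1.12 to 4.65). *Spry4* had 16 UMIs or 13.0 CPM (7.44 to 21.2) with and 8 UMIs or 5.20 CPM (2.25 to 10.3) without, a ratio of 2.50 (1.01 to 6.76). For both, the interval of the ratio to control also lay above 1 in the cells without an *Etv4* or *Etv5* UMI. That ratio was 2.07 for *Spred3* (1.01 to 4.05) and 34.3 for *Spry4* (4.61 to 1524). Of the 24 knockout cells with a *Spry4* UMI, 16 held an *Etv4* or *Etv5* UMI (66.7%, 44.7 to 84.4), against 146 of the 366 others (39.9%, 34.8 to 45.1), at median depths of 7458 and 6543 UMIs. Of the remaining 8, 7 held a UMI of at least 1 of *Gm5820, 9630014M24Rik, C1ql1* and *Fgf1*, a set of genes chosen with earlier results of these data known. The same count was 13 of 42 for *Spred1* and 4 of 12 for *Spred3*, in knockout cells with the gene but no *Etv4* or *Etv5* UMI. Among all knockout cells, those with an *Etv4* or *Etv5* UMI included, 190 held a UMI of this set and 200 did not. The share among the 228 cells without an *Etv4* or *Etv5* UMI was not counted. Whether the 7 of 8 differ from these shares was not tested.

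The remaining members showed no difference that their counts could resolve. *Spry2* had 74.9 CPM with and 68.3 CPM without an *Etv4* or *Etv5* UMI, a ratio of 1.10 (0.820 to 1.46). *Spred2* had 143 and 131 CPM, a ratio of 1.10 (0.890 to 1.35). The intervals of these 2 genes exclude a 1.5-fold change. *Dusp4* had 44 UMIs on each side, a ratio of 1.25 (0.805 to 1.95), *Spry1* had 6 and 2 UMIs and *Dusp6* had 3 and 0. *Dusp5* had 3 and 9 UMIs, a ratio of 0.417 (0.0727 to 1.67), and against control its ratio was 0.248 in the cells with (0.0499 to 0.758) and 0.595 in those without (0.260 to 1.20).

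**Figure D3:**
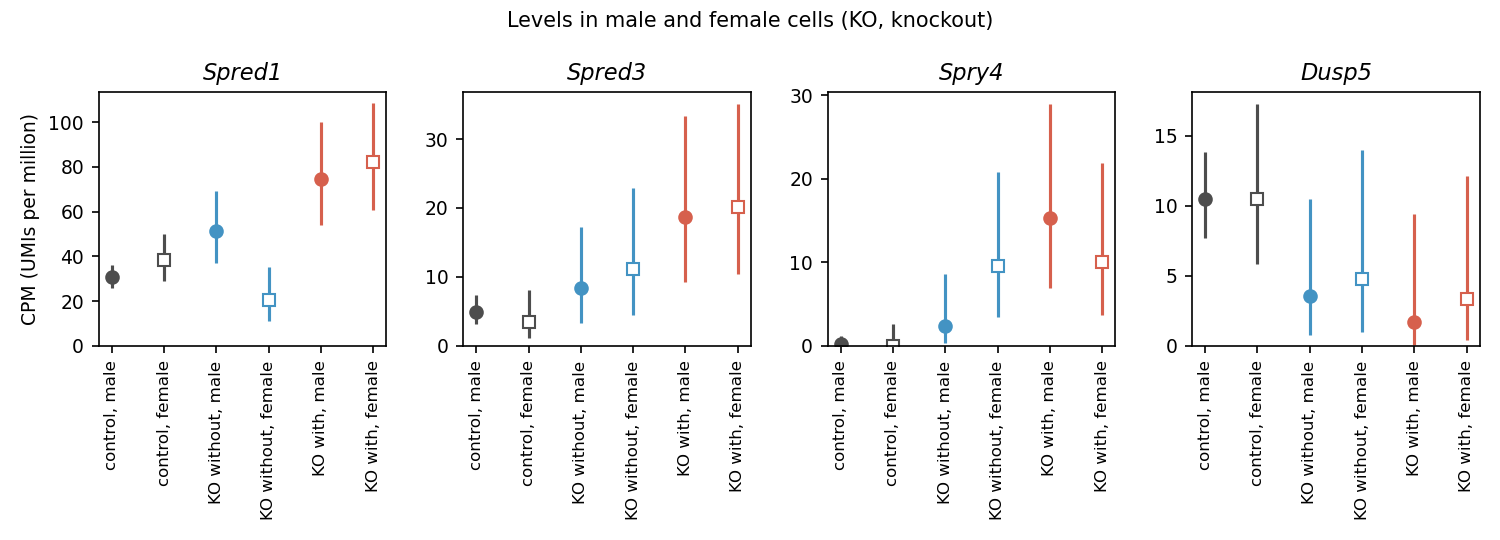
CPM of *Spred1*, *Spred3*, *Spry4* and *Dusp5* in male (filled circles) and female cells (open squares) of control, of knockout (KO) cells without and of KO cells with an *Etv4* or *Etv5* UMI, with exact Poisson 95% intervals. *Spred1* runs from 20.7 CPM in female KO cells without to 82.1 CPM in female KO cells with such a UMI, and *Dusp5* is lower in all 4 knockout groups than in both control groups.

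Cells were assigned to a sex by *Xist* or Y-linked UMIs, and female cells made up 24.4% of the assigned control cells and 47.6% of the assigned knockout cells. *Spred3* had 4.90 CPM in male and 3.48 CPM in female control cells, below its level in each of the 4 knockout groups of cells, where it ranged from 8.35 to 20.1 CPM. *Spry4* had 1 UMI in male and 0 in female control cells, and 2.39 to 15.2 CPM in the 4 knockout groups. *Dusp5* had 10.4 and 10.5 CPM in male and female control cells and 1.69 to 4.77 CPM in the knockout groups, on 1 to 3 UMIs each. All female control cells came from 1 mouse and the female knockout cells from 2, so a difference between animals can appear as one between sexes. Within the sexes the part that the pooled animals play was not tested further.

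The number of *Etv4* and *Etv5* UMIs per cell was also used, after thinning each cell to 3000 UMIs so that depth could not set it. *Spred1* had 45.2 CPM (31.7 to 62.6) in the 281 knockout cells with 0 such UMIs. It had 71.0 CPM (37.8 to 121) in the 65 cells with 1 and 97.8 CPM (39.3 to 202) in the 25 cells with 2. In the 16 cells with 3 or more it had 3 UMIs, or 66.1 CPM (13.6 to 193). The intervals of all 4 bins overlap, so no trend with the number of such UMIs was resolved, and the last bin holds few cells. Thinned to this depth, cells held a UMI of 0.731 members on average in the knockout and of 0.648 in the control. At least 3 members were seen together in 9 of 161 knockout cells with an *Etv4* or *Etv5* UMI (5.59%, 2.59 to 10.3). The same was seen in 1 of 226 cells without (0.442%, 0.0112 to 2.44). These 2 groups were split on unthinned counts, so depth still bears on which cells each holds. The control share was 1.52% (0.856 to 2.50).

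Control cells were split by *Etv4* or *Etv5* in the same way, 87 with and 916 without a UMI. *Spred1* was called here too, with 49.4 CPM (34.0 to 69.4) with and 30.0 CPM (25.8 to 34.7) without, a ratio of 1.65 (1.10 to 2.40). In that split 3.07% of 8304 genes were called higher and 7.85% lower, and 1 of the 4 members that passed was higher. *Spry2*, *Spred2* and *Dusp4* had ratios between 1.10 and 1.21. *Spry4* had 0 UMIs in the control cells with an *Etv4* or *Etv5* UMI and 1 in the others. The 0 of 87 cells allow a share of up to 4.15% (Clopper-Pearson), which does not separate them from the knockout cells without an *Etv4* or *Etv5* UMI (3.51%, 1.53 to 6.80). In the knockout cells with such a UMI, the like group, the share was 9.88% (5.75 to 15.5), an interval above that 4.15%.

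The genes closest to *Spred1* in pattern were found over 6 groups, the male and female cells of control and of knockout cells with and without an *Etv4* or *Etv5* UMI. On log2(CPM + 1), *Gtf2a1* (Pearson r 0.9906), *Synrg* (0.9903) and *Hccs* (0.9875) were the most alike among 9442 genes. *Gtf2a1*, a subunit of a general transcription factor, had a ratio of 1.14 (0.915 to 1.41) between knockout and control. *Synrg*, a gene of vesicle traffic, had 1.17 (0.982 to 1.38), and *Hccs*, which attaches haem to cytochrome c, had 1.39 (0.928 to 2.06). None of the 3 was called. With 6 groups that share libraries and so many genes, such values describe the groups only.

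How the members vary among cells of a library was described by 6 splits made within each genotype. *Spred1* was higher in cells with a UMI of *Cck*, which encodes cholecystokinin. Its CPM was 42.8 with and 26.2 without in control, a ratio of 1.63 (1.23 to 2.16), and 80.4 with and 45.2 without in the knockout, a ratio of 1.78 (1.27 to 2.48). The background of that split was 2.4% of genes higher and 2.66% lower in control, and 3.66% and 4.59% in the knockout. *Spry4* had 12 UMIs on either side in the knockout, which is 15.1 CPM in the 110 cells with and 6.09 CPM in the 280 cells without a *Cck* UMI. No member was called between cells with and without a UMI of *Gabrg3*, a GABA receptor subunit gene (1.46% of genes higher and 1.41% lower in control, 2.26% and 1.95% in the knockout), nor between female and male cells (1.24% and 2.23%, 1.74% and 2.02%). Between cells with and without a UMI of *Grik1*, a glutamate receptor subunit gene, *Spry2* was lower in the knockout, at 42.9 against 78.0 CPM, a ratio of 0.549 (0.339 to 0.852). It had 79.8 against 68.0 CPM in control, a ratio of 1.17 (0.940 to 1.46). In this split 2.24% of genes were higher and 4.58% lower in control, and 2.6% and 5.32% in the knockout.

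*Dusp4* followed the early genes, a list of 14 genes such as *Fos*, *Egr1* and *Npas4* that neurons switch on within minutes of a stimulus. In control cells it had 47.3 CPM in the upper tercile of cells by the share of early gene UMIs and 16.1 CPM in the lower, a ratio of 2.93 (1.99 to 4.42), where 7.48% of genes were called higher and 4.76% lower. In the knockout it had 40.7 and 18.7 CPM, a ratio of 2.17 (1.20 to 4.10) on 39 and 17 UMIs, too few for a call (8.12% of genes higher, 4.22% lower). *Spry2* had ratios of 1.44 and 1.30 and *Spred1* of 1.17 and 0.731 in the same split. Early genes took 0.181% of UMIs in control cells, 0.181% in knockout cells without and 0.143% in knockout cells with an *Etv4* or *Etv5* UMI. In control cells the share was 0.243% with and 0.174% without such a UMI. Without the upper tercile of each library, *Spred1* had a ratio of 1.96 between knockout and control and of 1.58 between the cells with and without.

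Cells in which nuclear genes of the respiratory chain took at least 1.5% of UMIs numbered 102 in control (10.2%, 8.37 to 12.2) and 41 in the knockout (10.5%, 7.65 to 14.0). Their profile differs widely from that of the other cells: 23.5% of genes were called higher and 24.5% lower in control, 19.8% and 23.5% in the knockout, and the median ratio of all genes was 0.906 and 0.888. *Spry2* was higher in these cells, at 109 against 63.0 CPM in control, a ratio of 1.73 (1.39 to 2.14), and at 132 against 58.8 CPM in the knockout, a ratio of 2.24 (1.63 to 3.04). *Spred1* was lower in control, at 21.6 against 34.0 CPM, a ratio of 0.636 (0.394 to 0.983), and had a ratio of 0.997 in the knockout. *Dusp5* had 22.5 against 7.41 CPM in control, a ratio of 3.04 (1.76 to 5.16) on 24 and 41 UMIs. Without these cells the ratio of knockout to control was 1.63 for *Spred1* and 0.412 for *Dusp5*.

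**Figure D4:**
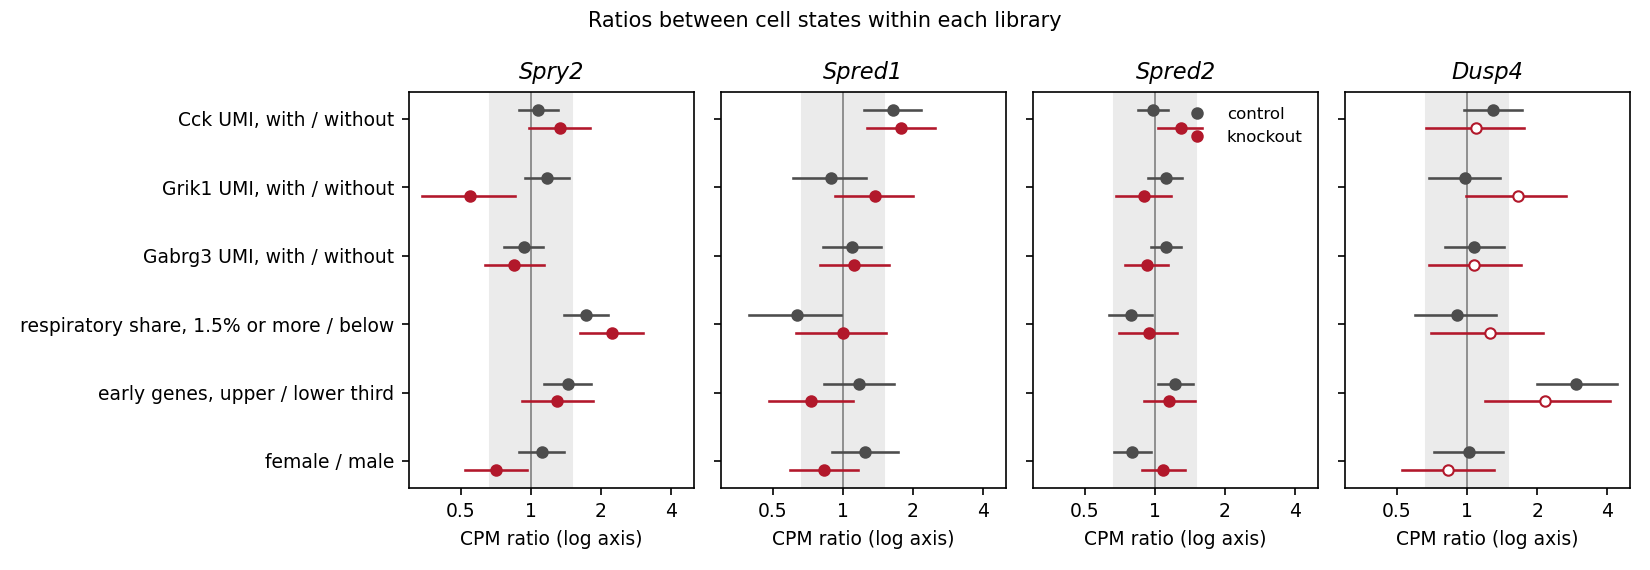
CPM ratio of the 4 members with most UMIs between cell states (log axis), in control (grey) and knockout (red), with exact 95% intervals. Filled points had at least 100 UMIs, open points fewer, and the grey band spans less than 1.5-fold. *Spry2* lies right of the band for the respiratory share in both libraries (1.73 and 2.24), *Spred1* for *Cck* (1.63 and 1.78) and *Dusp4* for the early genes (2.93 and 2.17). For the respiratory share, 23.5% of all genes were called higher in control and 19.8% in the knockout. *Spred1* lies left of the band for that share in control (0.636), and *Spry2* for *Grik1* in the knockout (0.549).

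The members were then set beside 5 lists of genes of the same pathway, read against the same backgrounds over all genes: 2.73% higher and 1.66% lower in the knockout, 2.99% and 1.95% within it. Of the other 7 phosphatases of MAP kinases, 4 had at least 100 UMIs and 1 rose in the knockout: *Dusp16*, which acts on JNK and p38, had 39.7 CPM in control and 60.7 CPM in the knockout, a ratio of 1.53 (1.25 to 1.86). The median of the 4 was 1.21. *Dusp16* had 53.7 CPM in the knockout cells with and 66.3 CPM in those without an *Etv4* or *Etv5* UMI, a ratio of 0.810 (0.585 to 1.11) that was not called. None of the 7 of 10 RAS GTPase activators with enough UMIs was called (median ratio 1.03), nor any of 6 of 8 other negative regulators (median 1.04). Both lists had 0 calls within the knockout as well.

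Of 11 genes known to rise with ERK activity, 5 had at least 100 UMIs and 3 of them rose in the knockout (median ratio of the 5, 3.99). These 3 are CIC targets that the study had already reported as changed in the same libraries. Of them, *Etv4* passed the minimum through its 196 knockout UMIs, with 13 in control. Its passing and its being counted are not independent, so the filter partly sets this count and the median. *Epha4* and *Ier3*, which also passed the minimum, had ratios of 1.04 and 1.02. *Etv4* had 1.97 CPM in control and 70.9 CPM in the knockout, a ratio of 36.0 (20.6 to 68.8). *Etv5* had 15.0 and 70.9 CPM, a ratio of 4.73 (3.69 to 6.08), and *Vgf*, which encodes a secreted neuropeptide precursor, had 16.1 and 64.0 CPM, a ratio of 3.99 (3.12 to 5.12). *Vgf* was also higher in knockout cells with than without an *Etv4* or *Etv5* UMI, at 96.9 against 37.7 CPM, a ratio of 2.57 (1.86 to 3.58), close to that of *Spred1*. Of 14 early genes, 10 had enough UMIs, 0 rose and 2 fell. *Egr1*, a transcription factor gene that ERK induces through other DNA-binding factors, fell from 101 to 40.9 CPM, a ratio of 0.406 (0.330 to 0.497), and *Ier2* from 49.2 to 30.4 CPM, a ratio of 0.617 (0.479 to 0.786). Between knockout cells with and without an *Etv4* or *Etv5* UMI, *Egr1* had 12.2 against 63.7 CPM (ratio 0.192, 0.103 to 0.332) and *Npas4* 67.6 against 110 CPM (ratio 0.615, 0.467 to 0.804). In control cells split in the same way *Egr1* had 123 CPM with and 98.1 CPM without such a UMI, a ratio of 1.25 (0.981 to 1.58) that was not called.

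The members were also read in barcodes of 20 to 100 UMIs, taken as droplets with free RNA and no cell. These belong to the same 2 libraries as the cells and are not a separate sample of either genotype. Their median depth was 44 UMIs in the knockout and 89 in the control. They held 3038825 UMIs in the knockout and 2178793 in the control, without mitochondrial and ribosomal genes. The whole matrices held 6777071 and 16336796 UMIs, of which 2937321 and 6981296 were in the cells. The window thus takes a larger part of the UMIs outside cells in the knockout than in the control. In the droplets of the knockout library *Spry4* had 64 UMIs or 21.1 CPM, against 2 UMIs or 0.918 CPM in those of the control library, a ratio of 22.9 (6.10 to 194). *Spred3* had 13.5 and 3.67 CPM, *Spred1* 43.8 and 16.5 CPM. *Spred2*, which did not pass the fold in cells, had 63.2 and 26.2 CPM, a ratio of 2.42 (1.79 to 3.31). *Spry2* had 108 and 132 CPM, a ratio of 0.822 (0.699 to 0.966). Over 7156 genes with at least 100 droplet UMIs, 3.81% were called higher and 1.72% lower, and the median ratio was 1.01. Of the 4 members that passed this minimum, 2 were called higher and 0 lower. *Spred1* passed it through its 133 droplet UMIs in the knockout, with 36 in the control. For *Spred1*, passing and being called are not independent, so this count is no support beyond the values themselves.

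**Figure D5:**
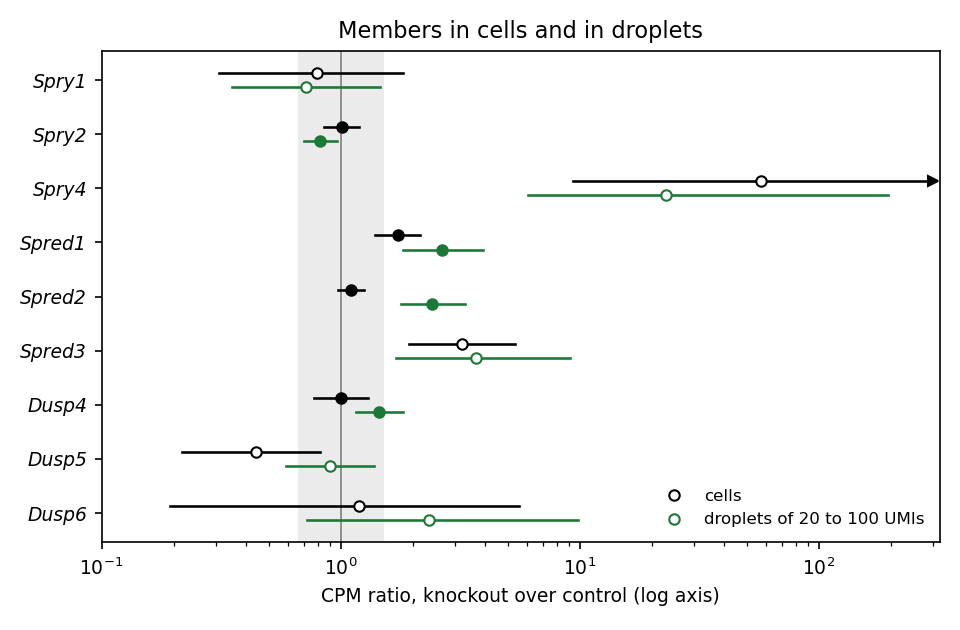
CPM ratio of knockout over control for each member in cells (black) and in droplets of 20 to 100 UMIs (green), with exact 95% intervals on a log axis. Filled points had at least 100 UMIs, open points fewer, and the grey band spans less than 1.5-fold. *Spry4*, *Spred1* and *Spred3* lie right of the band in both, and *Spred2* in droplets (2.42) but not in cells (1.11).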

How the data were processed

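Single-cell 3′ libraries (10x Genomics v3.1) of sorted hippocampal CR cells were analysed, 1 per genotype. The authors deposited raw UMI counts per gene and barcode for all barcodes, without normalization or cell calling. The methods name Cell Ranger on mm10, the submitters' processing notes Cell Ranger 8.0.1 and mm39, and whether intronic reads were counted was not given in the sources used here. The control matrix held 16336796 UMIs and the knockout matrix 6777071.

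Cells had at least 2000 UMIs and 5 *Reln* UMIs, with no clustering. CPM are summed UMIs per 1000000 UMIs, without 192 mitochondrial and ribosomal genes (symbols that begin mt-, Rpl, Rps, Mrp). Levels have exact Poisson, shares Clopper-Pearson and ratios exact binomial 95% intervals, all for counting error only. The study's tests over cells were not used, since cells are not replicates. Doublets were left in, and cells of highest Scrublet score (scanpy 1.11.5) were left out as an alternative. Thinning drew 3000 UMIs per cell and left out 19 control and 3 knockout cells that were shallower. Ratios and their intervals were checked on simulated Poisson counts, which hold no spread between cells or mice, so the check covers the calculation only. Thinned sums were checked against their expected values in the knockout cells. Gene positions were matched by Ensembl identifier to GENCODE M21 on GRCm38 (32158 of 32285 found).

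Named genes were the 9 members, *Cic*, pathway genes past the call, and the 3 genes most like each called member. Other genes, such as *Cspg4* and *Rgs5*, were named after their values were seen. The members, lists, cell splits and alternatives were chosen with earlier results of these data known. Alternatives were other rules for cells, scaling, free RNA, sex, early genes and markers of the split.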

Additional observations from a re-analysis of the deposited data

Results flagged for a closer look

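In droplets without cells, which the comparisons between cells do not use, 5 members had a ratio of knockout to control CPM whose interval lies above 1: *Spry4* at 22.9 (6.10 to 194), *Spred3* at 3.67 (1.70 to 9.07), *Spred1* at 2.65 (1.82 to 3.94), *Spred2* at 2.42 (1.79 to 3.31) and *Dusp4* at 1.45 (1.16 to 1.82). The droplets numbered 75813 in the knockout (median 44 UMIs) and 29040 in the control (median 89 UMIs). They come from the same libraries as the cells. *Spry4* had 64 UMIs in the knockout droplets against 24 in knockout cells. The interval of *Spry2* lies below 1, at 0.822 (0.699 to 0.966). Those of *Spry1*, *Dusp6* and *Dusp5* include 1, with *Dusp5* at 0.900 (0.592 to 1.38). How many of all genes have an interval above 1 was not counted. By the fold of a call, 3.81% of 7156 genes were higher in droplets and 1.72% lower.

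The ratio of *Spry2* between cells with and without a UMI of *Grik1*, a glutamate receptor subunit gene, was 0.549 (0.339 to 0.852) in the knockout and 1.17 (0.940 to 1.46) in control, where the interval includes 1 and the ratio was not called. The values lie on either side of 1. There was 1 library of each genotype, and the difference was not tested.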

How the results depend on the processing

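No ratio that passed the call reversed under any alternative run. *Spred1* stayed above 1 under all 17 alternatives for knockout over control (1.16 to 2.45) and all 20 for cells with over without an *Etv4* or *Etv5* UMI (1.45 to 3.97). *Spry4* had a value under 12 alternatives (34.3 to 105), *Spred3* under 17 (2.07 to 4.63) and *Dusp5* under 17 (0.248 to 0.595), and a group at 0 gave no value elsewhere.

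Values that moved by more than their counting interval, for knockout over control, were these. In male cells *Spry2* had 1.20. In female cells *Spry1* had 2.34, *Spry2* 0.766, *Spred1* 1.32 and *Spred2* 1.34, with 0 members called higher. For knockout cells with an *Etv4* or *Etv5* UMI *Spred1* had 2.45, and for those without 1.16 with 0 called. At 20 UMIs per gene 3 were called higher, with *Spry4* among them through its knockout UMIs, and 1 lower. For cells with over without, *Spred1* had 1.45 in male and 3.97 in female cells with 0 called in each, where 2 and 1 members reached 100 UMIs. Thinning also left 0 called, as 1 member kept enough UMIs. *Spred2* had 0.831 without the upper tercile by early genes. Splitting by *Gm5820, 9630014M24Rik, C1ql1* or *Fgf1* gave *Spry4* 10.3 and *Dusp4* 0.783. At 20 UMIs 3 were called higher, with *Spry4* among them through its UMIs in the cells with. The causes were not tested. No paired analysis was possible because each genotype had 1 library, which also bars leaving out a replicate. Depth limits *Spry1*, *Spry4*, *Spred3*, *Dusp5* and *Dusp6* most.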
